A study of Saccharomyces cerevisiae with 24 samples.

Results

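The genes described here encode the subunits of the nuclear RNA polymerases of Saccharomyces cerevisiae. Members were found by matching the systematic name of each array probe to the symbols of the 31 subunit genes, and all 31 matched 1 probe each among the 6256 probes of the array. They comprise 7 subunits found only in RNA polymerase I (Pol I), 10 found only in Pol III, 2 shared by Pol I and Pol III, 5 shared by Pol I, Pol II and Pol III, and 7 found only in Pol II. Transcript levels were measured on 24 single-colour arrays from 3 strains in 2 media, with 4 biological replicates in each of the 6 groups. In SEF1-VP16 the 3′ end of SEF1, a transcription factor gene, is joined in frame to the sequence of the VP16 activation domain, and this strain is 1 clone. In sef1 the SEF1 gene is replaced by the nourseothricin resistance cassette NatMX4. The wild type, WT, carries the unmodified gene. All strains are MATa haploids of the W303 background, so they also share mutations in ade2, can1, his3, leu2, trp1 and ura3. Cells from overnight YPD cultures were diluted to 0.2 OD600/ml and then kept at 30 °C for 5.5 h in YPGly, a glycerol medium that requires respiration, or in YPD, a glucose medium that supports fermentation. Per the methods, the YPGly cultures were harvested at a lower density than the YPD cultures, so the medium and the density at harvest cannot be told apart.

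Pol I transcribes the large ribosomal RNA precursor, Pol II transcribes messenger RNAs, and Pol III transcribes transfer RNAs and the small 5S ribosomal RNA. The enzymes share a common core built of a pair of large catalytic subunits, a dimer of alpha-like subunits and several small subunits, to which each enzyme adds a stalk, a zinc ribbon subunit and, in Pol I and Pol III, subunits that resemble Pol II initiation factors. In yeast most of the RNA in a growing cell comes from Pol I and Pol III, and the genes for their subunits are known to follow growth conditions together with the genes for ribosome assembly.

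Levels are given as log2 intensity relative to the 75th percentile of the same array, so that a difference of 1 is a 2-fold change, and levels are not compared between probes. The scaling sets each transcript against the others on its array, so a change in the RNA content of the cell is not measured. All 31 probes passed the intensity filter and were well above background on all 24 arrays, with group mean intensities between 285 and 52790. The SD within a group had a median of 0.098 and ran from 0.015 to 0.355. A gene was called when its limma p, adjusted by Benjamini-Hochberg over 5641 tested probes, was below 0.05 and its level changed at least 1.5-fold. The array's 75th percentile ran from 5320 to 16182 intensity units, the share of probes well above background was between 90.9% and 97.5%, and 0 spots were saturated. SEF1 stood well above background on 0 of the 8 sef1 arrays and on all 4 arrays of every other group, where it was at least 22.1-fold higher in SEF1-VP16 and at least 32.9-fold higher in WT than in sef1 in YPGly, and at least 4.79-fold and 8.14-fold higher in YPD. ADH2, FBP1 and JEN1, genes of non-fermentative carbon use, were 5.42 to 8.59 higher on the log2 scale in YPGly than in YPD in the 3 strains. The a-factor gene MFA1 was measured in all groups, whereas of the markers of the other mating type the alpha-factor gene MF(ALPHA)1 was under the filter and the receptor gene STE3 passed it, at group mean intensities of 118 to 207.

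Each of the 3 slides held 8 arrays, with 1 group in each row. The first slide held sef1 and WT in YPD, the second WT in YPGly next to SEF1-VP16 in YPD, and the third SEF1-VP16 and sef1 in YPGly. Every comparison of the media therefore crossed slides, and within a slide lay only the comparison of sef1 with WT in YPD and that of SEF1-VP16 with sef1 in YPGly. Values from a fit with the slide as a term are given below, and what the slides contribute to the other values was not tested further.

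The comparison of the media addresses how fermentative and respiratory growth differ. The transcripts of the 2 largest Pol I subunits were lower in YPGly than in YPD in every strain, and most other Pol I subunit transcripts were lower in SEF1-VP16. Pol III subunit transcripts went both ways, and most Pol II subunit transcripts differed by less than 1.5-fold. In SEF1-VP16, 15 of the 31 subunits were called lower in YPGly and 0 higher, where 21.7% and 19.6% of all tested probes were called lower and higher. In sef1, 6 were called lower and 1 higher, against 19.4% of all probes in each direction. In WT, 3 were called lower and 3 higher, against 18.1% and 21.1% of all probes. The counts in sef1 and WT changed with the setting. In sef1, 11 were called lower with the array median as scaling, 10 with quantile normalization and 10 without sef1 in YPGly replicate 4, and in WT the 3 higher calls became 0 with either of these scalings. With the 1.5-fold requirement left off, 25, 22 and 14 subunits had an adjusted p below 0.05 and a lower level in SEF1-VP16, sef1 and WT, where 42.4%, 40.7% and 34.9% of all probes did. The median log2 difference of the 31 subunits, YPGly minus YPD, was −0.52 in SEF1-VP16, −0.37 in sef1 and −0.24 in WT, while the median of all tested probes was −0.048, −0.017 and 0.0086. Of the 31 subunits, 17 had a negative difference in all 3 strains and 5 a positive one, and 13 were called in no strain. Such counts across the strains were not made over all probes, so these describe the subunits only.

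**Figure D1:**
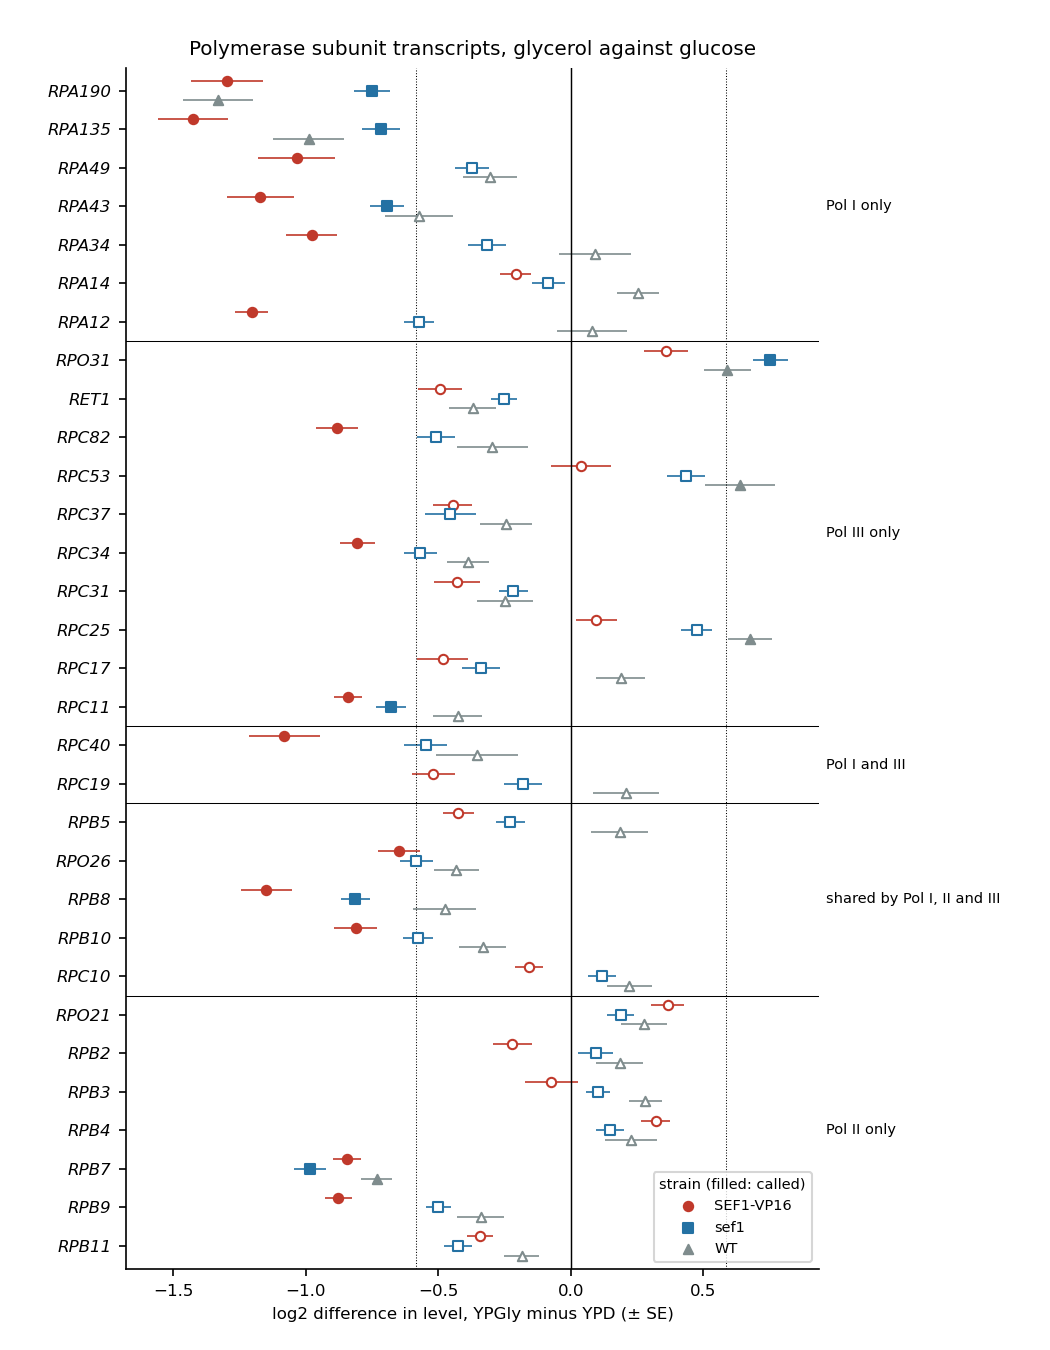
Log2 difference in level between YPGly and YPD (horizontal axis, YPGly minus YPD) for the 31 polymerase subunit genes, grouped by the polymerase they belong to, in SEF1-VP16 (circles), sef1 (squares) and WT (triangles). Bars are the limma SE over 4 arrays per group, filled symbols were called, and dotted lines mark a 1.5-fold change. RPA190, RPA135 and RPB7 were called lower in all 3 strains, and the SEF1-VP16 value was the lowest of the 3 for 25 of the 31 genes. These counts were not made over all probes.

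Of the 7 subunits found only in Pol I, 6 were called lower in YPGly in SEF1-VP16, 3 in sef1 and 2 in WT, with median differences of −1.17, −0.57 and −0.30. RPA190 encodes the largest subunit, which holds part of the catalytic centre. In SEF1-VP16 its log2 level was −1.27, −0.60, −0.70 and −0.78 in YPGly against 0.64, 0.42, 0.45 and 0.32 in YPD, a difference of −1.30 ± 0.13 (SE, adjusted p = 6.55e-06 by limma). In WT it was −0.80, −0.80, −1.15 and −0.54 in YPGly against 0.36, 0.59, 0.36 and 0.73 in YPD, a difference of −1.33 ± 0.13. All YPGly values lay below all YPD values in these strains and in sef1, where the difference was −0.75 ± 0.07. RPA135, which encodes the second largest subunit and completes the catalytic centre, fell by 1.43 ± 0.13 in SEF1-VP16, by 0.71 ± 0.07 in sef1 and by 0.99 ± 0.13 in WT on the log2 scale. These genes were called lower in all 3 strains, a 1.64-fold to 2.69-fold fall.

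The other 5 Pol I subunits were called in fewer strains. RPA43, whose product forms the stalk and contacts the initiation factor Rrn3, fell by 1.17 ± 0.13 in SEF1-VP16 and by 0.69 ± 0.06 in sef1. In WT its difference of −0.57 ± 0.13 had an adjusted p of 0.00231 by limma but was a 1.49-fold change, and it passed 1.5-fold with the array median or quantile normalization as scaling. RPA49 and RPA34 encode a dimer that resembles TFIIF, an initiation factor of Pol II. RPA49 fell by 1.03 ± 0.15 in SEF1-VP16 and had differences of −0.37 ± 0.06 in sef1 and −0.30 ± 0.10 in WT, and RPA34 fell by 0.98 ± 0.10 in SEF1-VP16 and had differences of −0.32 ± 0.07 in sef1 and 0.09 ± 0.14 in WT. Both were called in SEF1-VP16 alone of the 3 strains. RPA12 encodes the zinc ribbon subunit that takes part in cleavage of the nascent RNA. Its log2 level in SEF1-VP16 was −4.11, −4.01, −4.05 and −4.05 in YPGly against −2.94, −2.88, −2.88 and −2.70 in YPD, a difference of −1.20 ± 0.06 (adjusted p = 2.34e-08 by limma). In WT the levels were −4.26, −3.97, −4.11 and −3.99 in YPGly against −4.50, −3.87, −4.26 and −4.02 in YPD, a difference of 0.08 ± 0.13, and the groups overlapped. The sef1 value lay between these, at −0.57 ± 0.06, a 1.49-fold change with an adjusted p of 2.73e-06 by limma, and it was called with the array median (−0.65) or quantile normalization (−0.61) and without any one of 3 arrays (−0.59 to −0.61). RPA14, whose product is the partner of Rpa43 in the stalk, was called in no strain, with differences of −0.21 ± 0.06 in SEF1-VP16, −0.09 ± 0.06 in sef1 and 0.25 ± 0.08 in WT. The RPA14 gene overlaps the open reading frame YDR157W, and RPA43 and RPA190 are neighbours on chromosome XV.

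The 10 subunits found only in Pol III did not move together. In YPGly 3 were called lower and 0 higher in SEF1-VP16, 1 lower and 1 higher in sef1, and 0 lower and 3 higher in WT. RPO31, which encodes the largest subunit, had a log2 level of −1.25, −1.10, −1.02 and −1.18 in YPGly against −1.96, −1.79, −1.97 and −1.84 in YPD in sef1, a rise of 0.75 ± 0.07 (adjusted p = 1.04e-06 by limma). It rose by 0.59 ± 0.09 in WT and had a difference of 0.36 ± 0.08 in SEF1-VP16. RPC25, which encodes the larger stalk subunit, had a level of −2.36, −2.27, −2.20 and −2.30 in YPGly against −3.14, −2.80, −2.98 and −2.91 in YPD in WT, a rise of 0.68 ± 0.08 (adjusted p = 3.44e-05 by limma). Its difference was 0.48 ± 0.06 in sef1 and 0.10 ± 0.08 in SEF1-VP16. RPC53, whose product forms with Rpc37 the TFIIF-like dimer that also acts in termination, rose by 0.64 ± 0.13 in WT and had differences of 0.43 ± 0.07 in sef1 and 0.04 ± 0.11 in SEF1-VP16. The 3 rises in WT were near the 1.5-fold limit and depended on the scaling. They fell under it with the array median (0.50 for RPO31, 0.55 for RPC53 and 0.58 for RPC25) and with quantile normalization, and RPC53 and RPC25 also with normexp background correction, although all kept an adjusted p below 0.05 and a positive difference. The call of RPO31 was lost without any one of WT in YPD replicates 3 and 4 and WT in YPGly replicates 1, 3 and 4 (0.54 to 0.58), and that of RPC53 without WT in YPD replicate 1 (0.57) or 3 (0.55).

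The remaining Pol III subunits were lower or close to their YPD level. RPC11, whose product takes part in RNA cleavage and termination, fell by 0.84 ± 0.05 in SEF1-VP16 and by 0.68 ± 0.06 in sef1, and had a difference of −0.43 ± 0.09 in WT. RPC82 and RPC34 encode parts of the trimer that joins Pol III to its initiation factors. In SEF1-VP16 RPC82 fell by 0.88 ± 0.08 and RPC34 by 0.80 ± 0.07, whereas their differences were −0.51 ± 0.07 and −0.57 ± 0.06 in sef1 and −0.30 ± 0.13 and −0.39 ± 0.08 in WT, under 1.5-fold. RPC31, the third gene of the trimer, was called in no strain (−0.43 ± 0.09 in SEF1-VP16, −0.22 ± 0.06 in sef1 and −0.25 ± 0.10 in WT). RET1, which encodes the second largest subunit, had differences of −0.49 ± 0.08, −0.25 ± 0.05 and −0.37 ± 0.09 in SEF1-VP16, sef1 and WT. RPC37 and the small stalk gene RPC17 were likewise called in no strain, and the RPC17 difference was −0.48 ± 0.10 in SEF1-VP16, −0.34 ± 0.07 in sef1 and 0.19 ± 0.09 in WT.

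Among the subunits that belong to more than 1 polymerase, 4 of 7 were called lower in YPGly in SEF1-VP16, 1 in sef1 and 0 in WT. The sef1 count depended on the scaling, since RPC40 (−0.62), RPO26 (−0.66) and RPB10 (−0.65) were also called there with the array median, and RPO26 and RPB10 with quantile normalization. RPC40 and RPC19 encode the alpha-like dimer shared by Pol I and Pol III. RPC40 had a log2 level of −1.31, −0.79, −0.61 and −0.92 in YPGly against 0.28, 0.06, 0.04 and 0.31 in YPD in SEF1-VP16, a fall of 1.08 ± 0.13 (adjusted p = 2.6e-05 by limma). Its difference was −0.55 ± 0.08 in sef1 and −0.35 ± 0.15 in WT. RPC19 was not called, with −0.52 ± 0.08 in SEF1-VP16, −0.18 ± 0.07 in sef1 and 0.21 ± 0.12 in WT. Of the 5 genes shared by Pol I, Pol II and Pol III, RPB8 changed most in SEF1-VP16 and sef1, where it fell by 1.15 ± 0.10 and by 0.81 ± 0.05, and it had a difference of −0.48 ± 0.12 in WT. RPB10, which encodes a small zinc-binding subunit, fell by 0.81 ± 0.08 in SEF1-VP16 and had differences of −0.58 ± 0.06 in sef1 and −0.33 ± 0.09 in WT. RPO26, which encodes a small subunit needed for assembly, fell by 0.65 ± 0.08 in SEF1-VP16, a call that was lost without SEF1-VP16 in YPGly replicate 1 (0.58 lower), and had differences of −0.58 ± 0.06 in sef1 and −0.43 ± 0.09 in WT. RPB5 and RPC10 were called in no strain and were positive in WT, at 0.18 ± 0.11 and 0.22 ± 0.09.

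Of the 7 subunits found only in Pol II, 2 were called lower in SEF1-VP16, 1 in sef1 and 1 in WT, and 0 were called higher. RPO21, which encodes the largest subunit with the repeated C-terminal tail, had differences of 0.37 ± 0.06, 0.19 ± 0.05 and 0.28 ± 0.09 in SEF1-VP16, sef1 and WT. RPB7 was the 1 Pol II subunit called in all 3 strains. It encodes the larger stalk subunit, which binds the emerging RNA, and its log2 level was −1.59, −1.46, −1.50 and −1.50 in YPGly against −0.62, −0.73, −0.66 and −0.67 in YPD in SEF1-VP16. In sef1 it was −1.53, −1.53, −1.75 and −1.65 in YPGly against −0.67, −0.66, −0.57 and −0.63 in YPD, and in WT −1.40, −1.37, −1.37 and −1.39 in YPGly against −0.61, −0.68, −0.62 and −0.68 in YPD. RPB7 thus fell by 0.84 ± 0.05 in SEF1-VP16, by 0.98 ± 0.06 in sef1 and by 0.73 ± 0.06 in WT (adjusted p of 1.21e-07, 5.89e-08 and 1.55e-06 by limma), with YPD levels between −0.73 and −0.57 on all 12 arrays. Its partner in the stalk, RPB4, was called in no strain and had positive differences of 0.32 ± 0.05, 0.15 ± 0.05 and 0.23 ± 0.10. RPB9, which encodes the zinc ribbon subunit, fell by 0.88 ± 0.05 in SEF1-VP16 and had differences of −0.50 ± 0.05 in sef1 and −0.34 ± 0.09 in WT. RPB2, RPB3 and RPB11, which encode the second largest subunit and the alpha-like dimer, differed by between −0.43 and 0.28 and were not called in any strain.

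Set side by side by position in the enzyme, the same part of each polymerase differed in its change. For the largest subunit the difference in WT was −1.33 for Pol I (RPA190), 0.28 for Pol II (RPO21) and 0.59 for Pol III (RPO31), and the Pol I gene was also the lowest of the 3 in SEF1-VP16 and sef1. For the second largest subunit it was −0.99 for RPA135, 0.18 for RPB2 and −0.37 for RET1 in WT. For the larger stalk subunit it was −0.57 for RPA43, −0.73 for RPB7 and 0.68 for RPC25 in WT, so that the Pol I and Pol II genes were lower and the Pol III gene higher. The zinc ribbon genes RPA12, RPB9 and RPC11 were closer together in SEF1-VP16, at −1.20, −0.88 and −0.84, and in sef1, at −0.57, −0.50 and −0.68, than the largest subunits were. These positions were set side by side as descriptions, and differences between genes were not tested.

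**Figure D2:**
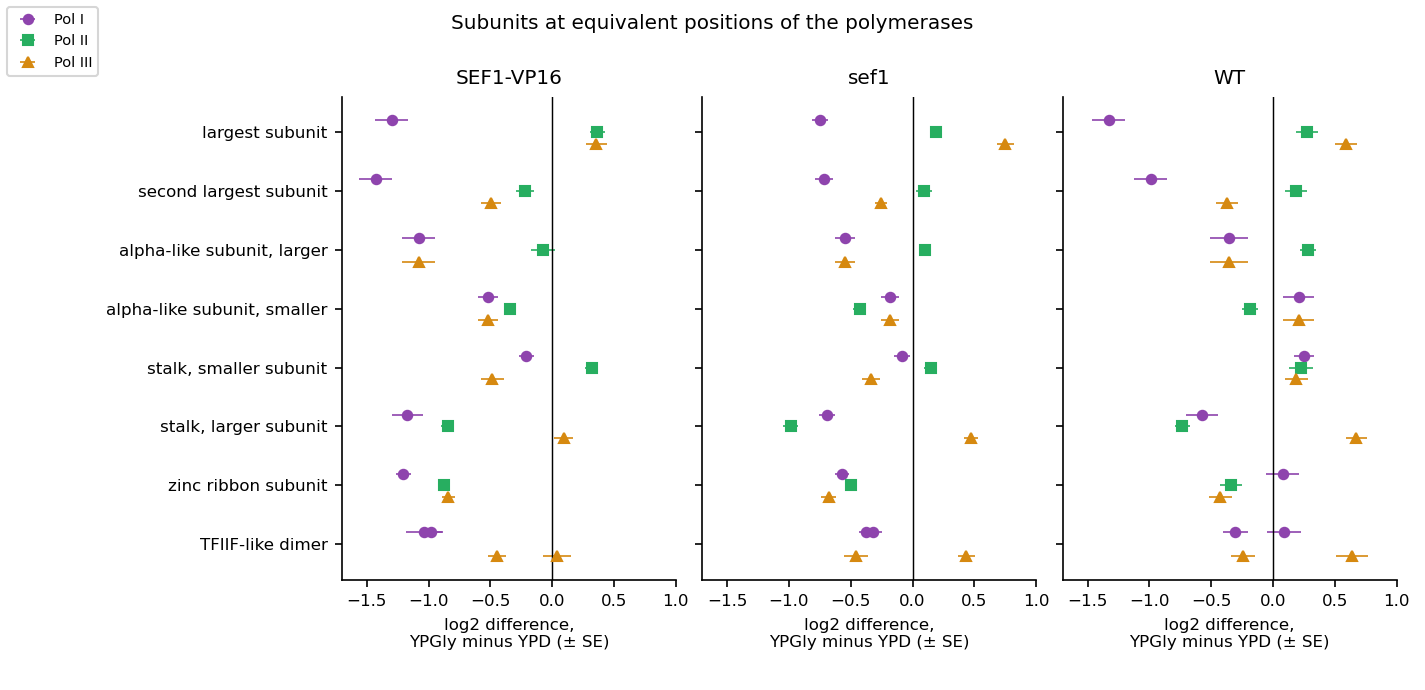
Log2 difference in level between YPGly and YPD (horizontal axis, ± limma SE over 4 arrays per group) for subunits at equivalent positions of Pol I (circles), Pol II (squares) and Pol III (triangles), in SEF1-VP16, sef1 and WT from left to right. The alpha-like subunits of Pol I and Pol III are the same genes and are drawn for both, and the TFIIF-like dimer has 2 genes in each of Pol I and Pol III. At the largest subunit the Pol I gene lay between −1.33 and −0.75 and the Pol II and Pol III genes between 0.19 and 0.75.

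When the slide was a term of the fit, the medium term was called lower for 12 subunits and higher for 0, against 20% and 21% of all probes. Of these, 4 of 7 were Pol I subunits, 4 of 10 Pol III subunits, 2 of 7 shared subunits and 2 of 7 Pol II subunits, and the class medians were −0.97 for Pol I, −0.35 for Pol III and −0.10 for Pol II. With this layout the medium term equals the change in WT plus that in SEF1-VP16 minus that in sef1. It is therefore not an average of the strains. For RPA190 it was −1.88, below the changes of −1.33 in WT, −1.30 in SEF1-VP16 and −0.75 in sef1. Without the slide term the Pol II median was −0.22 in SEF1-VP16, 0.09 in sef1 and 0.18 in WT. RPA34 and RPA12, which were called in SEF1-VP16, had medium terms of −0.57 and −0.55. Those of RPO31, RPC53 and RPC25 were 0.20, 0.24 and 0.30, and none of these genes was called. On the array of SEF1-VP16 in YPGly replicate 1, 23 of the 31 subunits were the lowest of their group, and their median distance from the mean of the other 3 arrays was −0.19. How many of all probes were lowest on that array was not counted. Without that array, 14 of the 31 subunits were called lower in YPGly in SEF1-VP16.

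**Figure D3:**
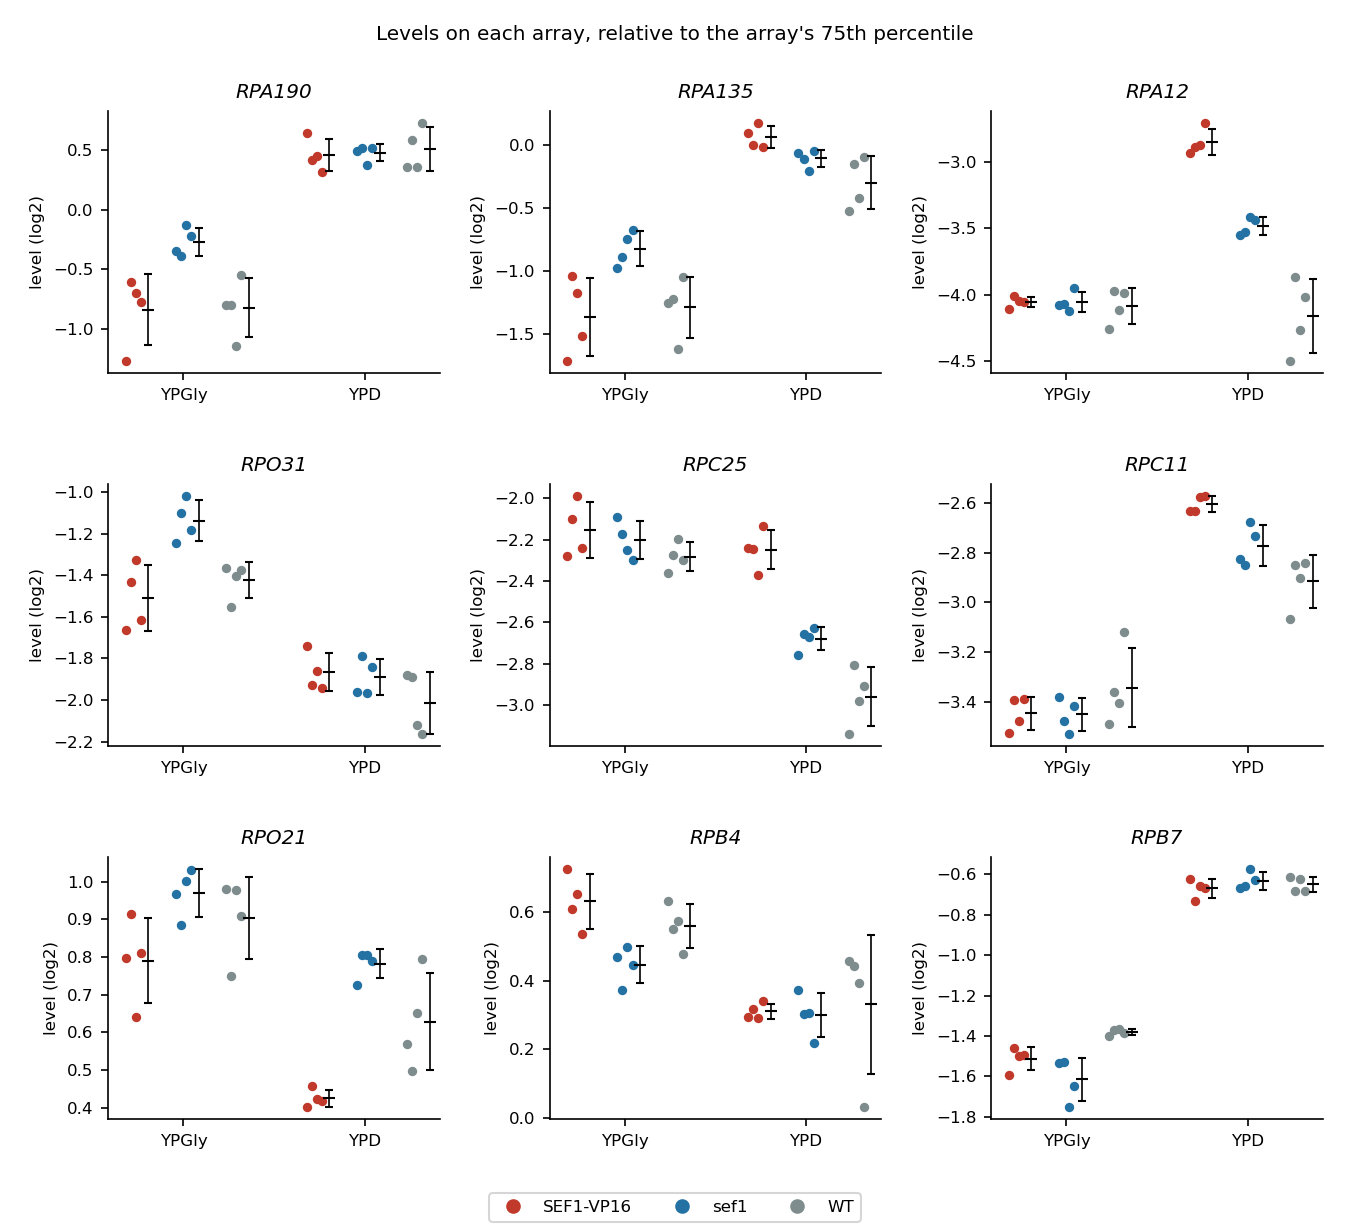
Log2 level relative to the array's 75th percentile (vertical axis, a separate scale for each gene) on each of the 24 arrays for 9 subunit genes, in YPGly (left) and YPD (right), with SEF1-VP16 in red, sef1 in blue and WT in grey. Black bars are the mean ± SD of 4 arrays. RPA12 levels in YPD were apart for the 3 strains and overlapped in YPGly, whereas RPB7 levels were alike in the strains in YPD and lower in all of them in YPGly.

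In YPD, SEF1-VP16 had higher levels than WT, past the call, of 3 of the 7 subunits found only in Pol I, 3 of the 10 found only in Pol III and RPC19, which both share. Thus 7 of the 31 subunits were called higher and 0 lower, where 5.66% of all tested probes were called higher and 3.49% lower. These groups lay on different slides. RPA12 was the 1 subunit called higher when the slide was a term of the fit. That fit's value for this pair does not draw on the SEF1-VP16 arrays in YPD, so it cannot check the calls in YPD. Without the 1.5-fold requirement, 21 subunits were higher and 1 lower at an adjusted p below 0.05, against 26.1% and 22% of all probes. The median difference, SEF1-VP16 minus WT, was 0.36 over the 31 subunits and 0.026 over all tested probes. By class it was 0.56 for Pol I, 0.37 for Pol III, 0.65 for the pair shared by Pol I and Pol III, 0.46 for the genes shared by all polymerases and 0.11 for Pol II. SEF1-VP16 in YPD had the highest mean of the 3 strains for 25 of the 31 subunits and WT the lowest for 27. These comparisons share the 4 WT arrays in YPD, among which replicate 1 was the lowest array for 16 of the 31 subunits. How often the other probes had these orders was not counted.

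RPA12 differed most. Its log2 level in YPD was −2.94, −2.88, −2.88 and −2.70 in SEF1-VP16, −3.55, −3.53, −3.41 and −3.43 in sef1 and −4.50, −3.87, −4.26 and −4.02 in WT. The 3 strains did not overlap. The difference was 1.31 ± 0.12 for SEF1-VP16 against WT (adjusted p = 4.22e-05 by limma), 0.68 ± 0.12 for sef1 against WT (adjusted p = 0.0171) and 0.63 ± 0.06 for SEF1-VP16 against sef1 (adjusted p = 2.77e-05). The last of these uses no WT array but crosses slides. When the slide was a term, the value for this pair was −0.00044 (adjusted p = 0.998 by limma). That fit ties this pair to the YPGly arrays, so it does not bear on the call in YPD. The call was lost with the array median (0.58) and normexp (0.49). RPA34 had levels of −1.77, −1.73, −1.72 and −1.65 in SEF1-VP16 against −2.93, −2.59, −2.52 and −2.83 in WT, a difference of 1.00 ± 0.09, and RPA49 had −1.32, −1.43, −1.36 and −1.35 in SEF1-VP16 against −2.36, −2.04, −2.15 and −2.22 in WT, a difference of 0.83 ± 0.07. Among the subunits found only in Pol I, those called were the TFIIF-like dimer and the zinc ribbon subunit, whereas RPA190 had a difference of −0.05 ± 0.10. RPA43 (0.56), RPA135 and RPA14 (0.36 each) were under 1.5-fold. Without that requirement, 6 of the 7 subunits were higher at an adjusted p below 0.05.

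Beyond the subunits found only in Pol I, the called genes were RPC19 (0.73 ± 0.11), which Pol I and Pol III share, RPC25 (0.71 ± 0.08), RPC17 (0.61 ± 0.10) and RPC53 (0.59 ± 0.13). RPC25 and RPC17 encode the stalk of Pol III. RPC25 had levels of −2.24, −2.24, −2.37 and −2.14 in SEF1-VP16 against −3.14, −2.80, −2.98 and −2.91 in WT, and the groups did not overlap. The calls of RPC53 and RPC17 were lost with the array median, quantile normalization and normexp, and that of RPC25 with normexp (0.57). With the slide as a term the values were 0.39 for RPC19 (adjusted p = 0.0913 by limma), 0.33 for RPC25 and 0.46 for RPC17. They were 0.20 for RPC53, 0.34 for RPA34 and 0.17 for RPA49, and none of these genes was called in that fit. Each value adds the difference of sef1 from WT in YPD to that of SEF1-VP16 from sef1 in YPGly. It therefore cannot check a call between SEF1-VP16 and WT in YPD. Leaving out 1 array at a time, the call of RPC17 was lost without SEF1-VP16 in YPD replicate 4 (0.56) or WT in YPD replicate 1 (0.58) or 3 (0.57), and that of RPC53 without SEF1-VP16 in YPD replicate 1 (0.58) or 4 (0.55) or WT in YPD replicate 1 (0.52) or 3 (0.50). No Pol II subunit was called in this comparison, and the lowest difference of the 31 was that of RPO21, at −0.20 ± 0.07 (adjusted p = 0.0304 by limma).

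Between sef1 and WT in YPD, which lay on the same slide, 1 subunit was called, RPA12, where 0.674% of all probes were called in either direction. At an adjusted p below 0.05 alone, 5 subunits were higher in sef1 and 0 lower, against 4.95% and 3.21% of all probes, and RPA34 (0.52 ± 0.11), RPA49 and RPC17 (0.42 each) followed RPA12. The lowest difference was −0.03, for RPB4. The call of RPA12 was lost with quantile normalization (0.58), with the methods' t-test (adjusted p = 0.0577), without WT in YPD replicate 1 (0.57), and without sef1 in YPD replicate 3 or 4, where the adjusted p was 0.0586 and 0.0595 by limma. Between SEF1-VP16 and sef1 in YPD, RPA12 was again the 1 gene called, where 3.14% of all probes were called. The call was lost without SEF1-VP16 in YPD replicate 4 (0.58). At an adjusted p below 0.05 alone 18 subunits were higher and 1 lower, against 22.7% and 21.4% of all probes, and the 1 lower gene was RPO21 (−0.36 ± 0.04).

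In YPGly 0 subunits were called between any 2 strains by limma, and 0 by the methods' t-test. At an unadjusted limma p below 0.05, 0 subunits were higher and 3 lower in SEF1-VP16 than in WT, 5 higher and 2 lower in sef1 than in WT, and 2 higher and 7 lower in SEF1-VP16 than in sef1. The shares of all probes at an unadjusted p were not counted. For SEF1-VP16 against WT, where 1.1% of all probes were called, 0 subunits had an adjusted p below 0.05 (1.26% of all probes did with a higher and 0.567% with a lower level) and the differences ran from −0.29 (RPB2) to 0.13 (RPC25). For sef1 against WT in YPGly, where 0.798% of all probes were called, RPA190 had the largest difference, 0.55 ± 0.12 (adjusted p = 0.0307 by limma), which passed 1.5-fold without WT in YPGly replicate 4 (0.64). Its log2 level was −0.34, −0.39, −0.13 and −0.22 in sef1 against −0.80, −0.80, −1.15 and −0.54 in WT, without overlap. The lowest difference was that of RPB7, at −0.23. For SEF1-VP16 against sef1 in YPGly, which lay on the same slide and where 3.08% of all probes were called, RPA190 was again the gene with the largest difference, at −0.57 ± 0.13 (adjusted p = 0.0137 by limma), and the highest was RPB4, at 0.18. Leaving out any one of SEF1-VP16 in YPGly replicates 2, 3 and 4 and sef1 in YPGly replicates 1 and 2 took RPA190 past 1.5-fold (−0.59 to −0.65). A total of 6 subunits were lower at an adjusted p below 0.05 alone, RPA190, RPA135, RPO31, RET1, RPB2 and RPB9, where 12.7% of all probes were. These include the 2 largest subunits of Pol I and of Pol III, and the second largest of Pol II, RPB2.

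**Figure D4:**
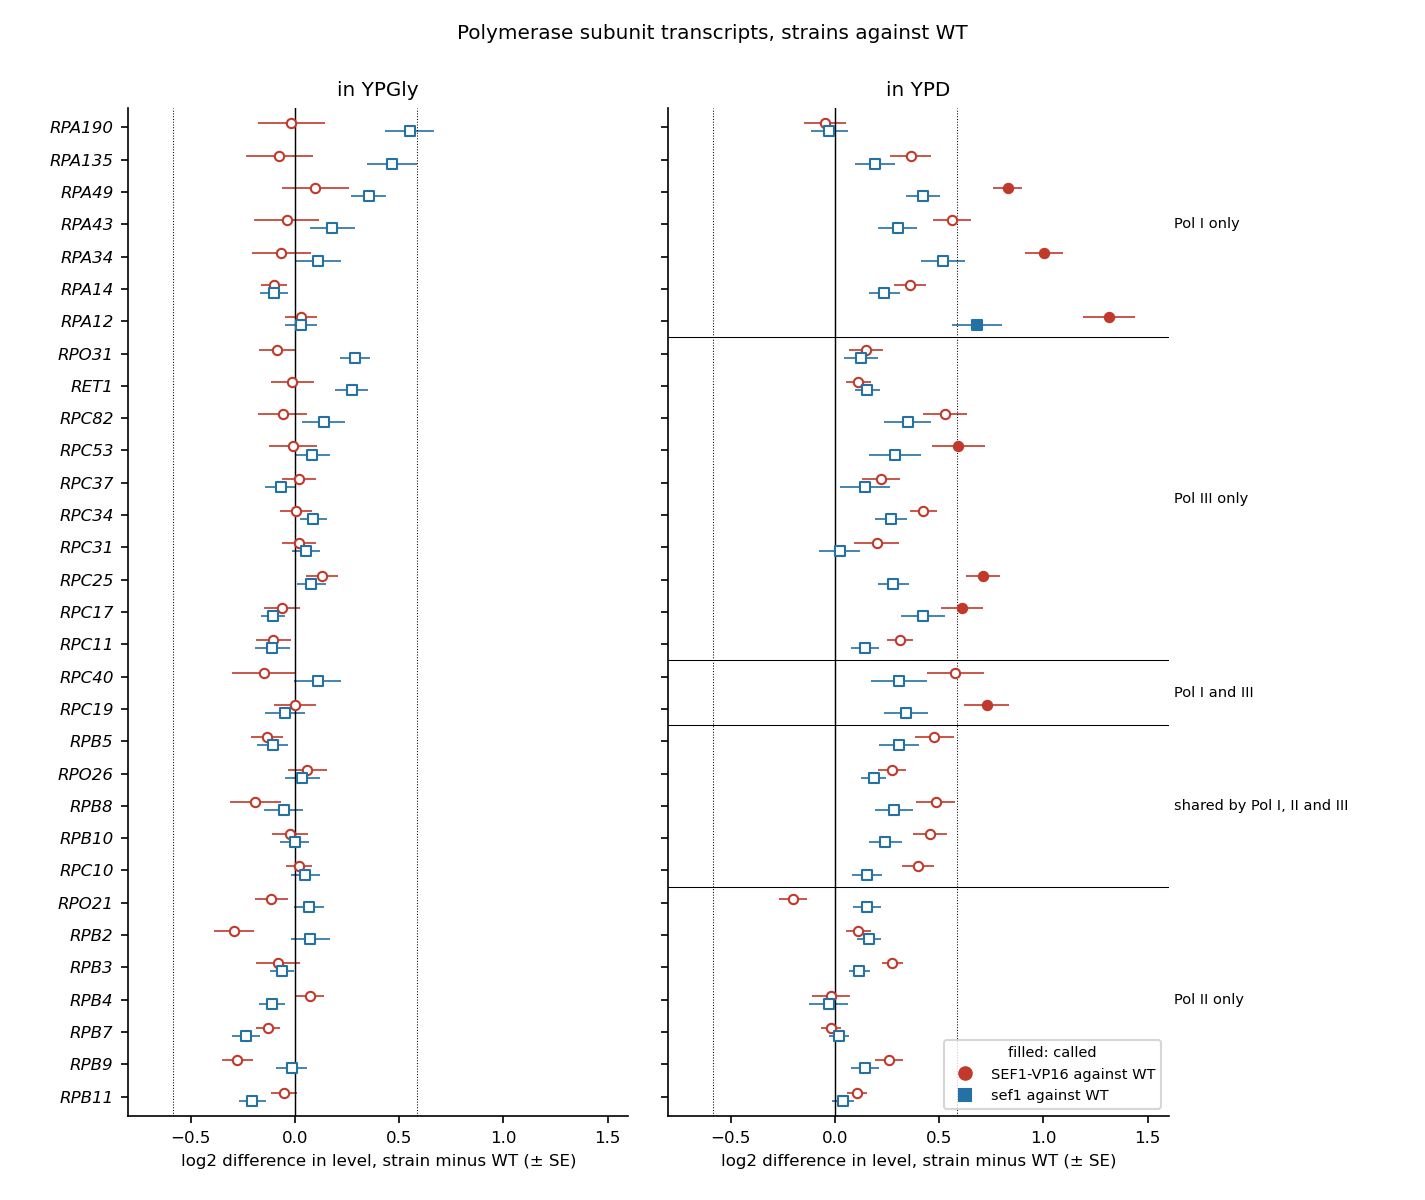
Log2 difference in level of SEF1-VP16 (circles) and sef1 (squares) against WT (horizontal axis, strain minus WT, ± limma SE over 4 arrays per group) for the 31 subunit genes, in YPGly (left) and YPD (right). Filled symbols were called and dotted lines mark a 1.5-fold change. In YPD 7 genes were called higher in SEF1-VP16 and 1 in sef1, and in YPGly 0 were called.

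An interaction term tested whether the media changed the difference between strains. It is the strain difference in YPGly minus that in YPD, and the same quantity as the change between media in one strain minus that in the other. For SEF1-VP16 against WT, 11 of the 31 subunits were called, all with a negative interaction, where 6.72% of all probes were called in that direction. Of these, 4 were Pol I subunits, 3 Pol III subunits, 4 shared subunits and 0 Pol II subunits. RPA12 had an interaction of −1.28 ± 0.15 (adjusted p = 3.22e-05 by limma) and RPA34 of −1.07 ± 0.18 (adjusted p = 0.000387). RPA49, RPC40, RPC19, RPC17, RPB8, RPB5, RPC53, RPA43 and RPC82 followed, between −0.73 and −0.59, and the highest value was that of RPB4, at 0.09. Under the array median, quantile normalization and normexp, 5, 6 and 6 subunits were called. For SEF1-VP16 against sef1, 4 were called, RPA135 (−0.71 ± 0.16), RPA49 (−0.66 ± 0.17), RPA34 (−0.66 ± 0.13) and RPA12 (−0.63 ± 0.08), all of them Pol I subunits, where 4.36% of all probes were called lower. The calls of RPA49, RPA34 and RPA12 were lost with the array median, quantile normalization and normexp (−0.58 to −0.47). For sef1 against WT, 1 was called, RPA12 at −0.65 ± 0.15 (adjusted p = 0.0358 by limma), where 0.496% of all probes were called lower. The highest value was that of RPA190, at 0.58.

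The interaction calls near 1.5-fold changed when arrays were left out. For SEF1-VP16 against WT the calls of RPA12, RPA34, RPC17 and RPC19 held in all fits without 1 array, whereas that of RPC82 was lost in 8 of the 16 fits, those of RPA43 and RPC53 in 7 each, that of RPB5 in 4 and that of RPB8 in 2. The RPC17 call was nevertheless lost with the array median (−0.55), quantile normalization (−0.53) and normexp (−0.35). RPA49 was lost without SEF1-VP16 in YPGly replicate 1 (−0.57) and RPC40 without WT in YPD replicate 4 (−0.58). The RPA12 call for sef1 against WT was lost in 12 of the 16 fits. In SEF1-VP16 against sef1, RPA49 was lost without SEF1-VP16 in YPGly replicate 1 (−0.50), RPA34 without SEF1-VP16 in YPGly replicate 4 (−0.58) and RPA12 without SEF1-VP16 in YPD replicate 4 (−0.58). Each interaction compares groups on all 3 slides, so an effect of the slides and one of the medium cannot be told apart. With the slide as a term, RPA12 (0.68) and RPA190 (−0.60) were called for SEF1-VP16 against WT, where 3.07% of all probes were. That value adds the difference of SEF1-VP16 from sef1 in YPGly to that of sef1 from WT in YPD. It is thus not a difference seen in both media. The RPA190 means of SEF1-VP16 and WT were 0.458 and 0.508 in YPD, and −0.839 and −0.822 in YPGly. For SEF1-VP16 against sef1 0 subunits were called in the fit with the slide, where 3.12% of all probes were.

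Genes that act with the polymerases were described from 7 lists with 54 genes. Of the 9 Pol I initiation factors, 3 were called higher and 1 lower in YPGly in SEF1-VP16, 3 and 1 in sef1, and 4 and 1 in WT. Over all probes the shares called higher and lower were 19.6% and 21.7% in SEF1-VP16, 19.4% each in sef1, and 21.1% and 18.1% in WT, and the same shares apply to the lists that follow. RRN3 encodes the factor that makes Pol I competent to start transcription by binding the Rpa43 stalk. Its mean log2 level was −2.08 ± 0.11 in YPGly against −3.66 ± 0.09 in YPD in SEF1-VP16, −1.89 ± 0.03 against −4.12 ± 0.08 in sef1 and −2.15 ± 0.04 against −4.21 ± 0.09 in WT (SD, n = 4). RRN3 thus rose by 1.58 ± 0.07, 2.23 ± 0.05 and 2.07 ± 0.07 in the strains in which the Pol I subunit medians were negative. Its interaction was called for SEF1-VP16 against sef1, at −0.65 ± 0.09. RRN7 and RRN11, which encode parts of the core factor at the ribosomal RNA gene promoter, also rose in all 3 strains, by 0.59 to 0.81 and by 0.73 to 1.04. HMO1, which encodes a high mobility group protein of active ribosomal RNA genes, fell by 0.86 ± 0.06 in SEF1-VP16, by 0.82 ± 0.06 in sef1 and by 0.59 ± 0.07 in WT.

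**Figure D5:**
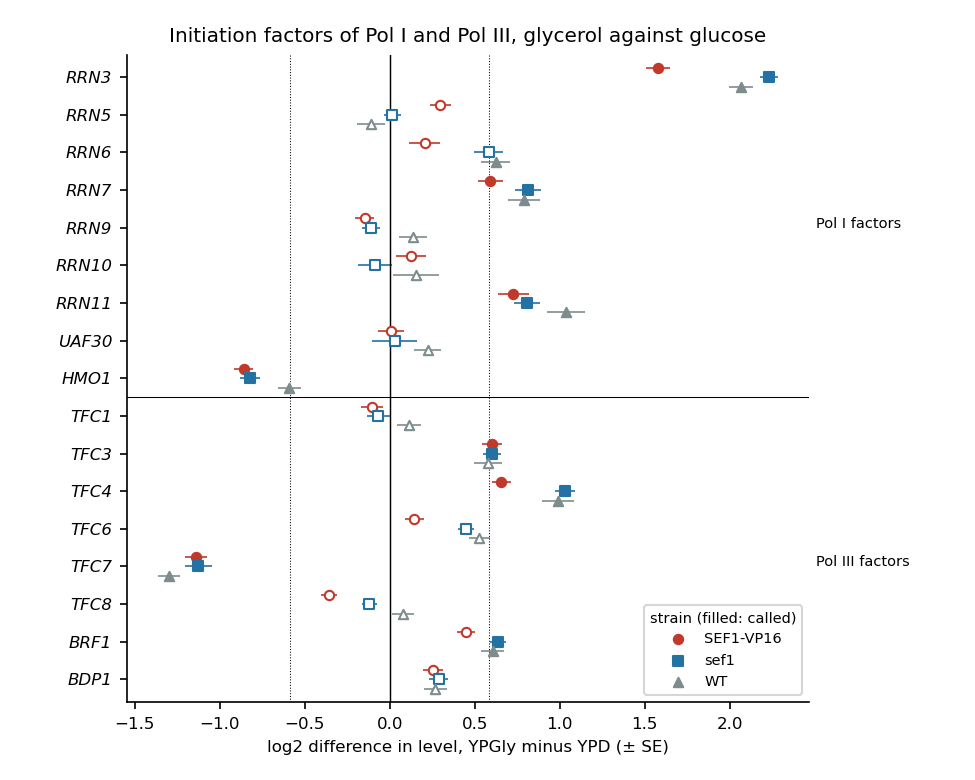
Log2 difference in level between YPGly and YPD (horizontal axis, YPGly minus YPD, ± limma SE over 4 arrays per group) for 9 initiation factor genes of Pol I and 8 of Pol III in SEF1-VP16 (circles), sef1 (squares) and WT (triangles). Filled symbols were called and dotted lines mark a 1.5-fold change. RRN3 was the highest in each strain, at 1.58 to 2.23, and TFC7 the lowest, at −1.30 to −1.13.

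Of the 8 Pol III initiation factors, SEF1-VP16 had 2 that were called higher in YPGly and 1 lower, sef1 had 3 and 1, and WT had 2 and 1. TFC4, which encodes a subunit of TFIIIC, the factor that recognises the promoters inside transfer RNA genes, rose by 0.66 ± 0.06, 1.03 ± 0.06 and 0.99 ± 0.10 in SEF1-VP16, sef1 and WT. TFC7, which encodes another TFIIIC subunit, fell by 1.14 ± 0.06, 1.13 ± 0.08 and 1.30 ± 0.06, so that subunits of 1 factor went in opposite directions. BRF1, which encodes a subunit of TFIIIB, rose by 0.64 ± 0.05 in sef1 and by 0.60 ± 0.07 in WT, and had a difference of 0.45 in SEF1-VP16. MAF1, the repressor of Pol III, and SPT15, which encodes the TATA-binding protein used by all polymerases, were called in no comparison. Of 18 Pol II general transcription factor genes, 1 was called in the comparison of the media, SSL2 in WT (0.74 ± 0.08). Of 9 elongation factor genes, 1 was called, SPT4, which fell by 1.03 ± 0.06, 1.42 ± 0.07 and 0.99 ± 0.10 in SEF1-VP16, sef1 and WT.

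Among the 8 genes for assembly and nuclear import of the polymerases, BUD27 and RTP1 rose in YPGly in sef1 (0.92 ± 0.06 and 0.92 ± 0.05) and WT (1.09 ± 0.13 and 0.89 ± 0.10), and 0 were called in SEF1-VP16. In YPD, BUD27 and RBA50 were higher in SEF1-VP16 than in WT, by 0.88 ± 0.12 and 0.61 ± 0.07 (adjusted p of 0.000359 and 0.000121 by limma). They were the only ones of the 54 genes of the 7 lists called between 2 strains in any medium. In that comparison 5.66% of all probes were called higher and 3.49% lower. Their interactions of SEF1-VP16 with the medium were −0.94 ± 0.17 and −0.66 ± 0.10 against WT, and those against sef1 were −0.77 ± 0.11 and −0.62 ± 0.08. With the array median, quantile normalization or normexp, 1 of the 2 was called in YPD.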

How the data were processed

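Total RNA was reverse transcribed with oligo-dT primers, labelled with an Alexa Fluor dye and hybridised to Agilent Yeast V2 8x15K arrays. For each array the authors deposited the scanner's output, which holds spot intensities of its green channel, background-corrected per the file headers by Agilent Feature Extraction 10.5.1.1 on the design for build sacCer1. A log2 table of the same arrays was deposited as well. Its values equalled the mean log2 intensity of a probe's unmarked spots minus a constant per array, with a largest departure of 2.48e-06, and served only as an alternative.

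Of the 13048 spots on an array, 536 were controls. Over all arrays 164 spots marked by the scanner software were left out, which left 15 probe values missing, none of them of a subunit. The processed intensity was taken to log2, the spots of a probe were averaged, and the array's 75th percentile was subtracted, as in the methods. Probes with a mean intensity of 200 in at least 1 group were tested (5641 of 6256, 90.2%). Gene symbols came from the RefSeq gene table through the systematic name, which matched 5756 probes. Promoter and protein sequences were not used here.

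Pairs of groups (8 arrays) and interactions (16 arrays) were fitted with limma 3.58.1 in R 4.3.3, with Benjamini-Hochberg adjustment. The methods used an unpaired t-test in GeneSpring with the same thresholds, run here as an alternative (the methods' t-test). The fit recovered known changes when tested on simulated data. Differences are ± SE and levels mean ± SD, and the number of arrays limits the precision. The bound for SEF1 sets the mean of the brighter strain against, per sef1 array, whichever is higher, its own level or the lowest of those probes that were well above background in all their spots. The fit with strain, medium and slide as terms has as many terms as groups, so it averages over neither media nor strains. It assumes that a strain difference is the same in both media. The layout ties this fit's value for sef1 and WT to the YPD arrays. That for SEF1-VP16 and sef1 is tied to the YPGly arrays, and row effects stay in. The value for SEF1-VP16 and WT is the sum of those values. The medium term is the change in WT plus that in SEF1-VP16 minus that in sef1.

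The 31 genes and the 7 lists were chosen with earlier results of these data known. Any subunit could be named in the comparisons of the media. In strain comparisons and interactions, those called and the largest in each direction were named, and others named there were chosen after their values were seen. At most 4 called genes were named per list. The alternatives were another scaling (array median, quantile), normexp (offset 50, on the median spot signal, a column chosen after seeing the data), no intensity filter, the deposited log2 table, the methods' t-test, a single fit of all arrays, the slide, a replicate block, other fold minimums and leaving out each array.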

Additional observations from a re-analysis of the deposited data

Results flagged for a closer look

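In 5 of the 186 combinations of a subunit and a group, 1 array lay far from the other 3, which chance alone does for about 1 in 20 groups. RPA34 was −3.01 on WT in YPGly replicate 1, against −2.54 to −2.46 on the other arrays. RPC17 was −4.26 on WT in YPD replicate 2, against −4.66 to −4.62. RPC40 was −0.28 on sef1 in YPD replicate 1, against −0.05 to −0.01. RPB3 was −0.046 on SEF1-VP16 in YPGly replicate 1, against 0.37 to 0.45. RPB4 was 0.031 on WT in YPD replicate 4, against 0.39 to 0.46. These values lie on 5 different arrays.

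The change between media differed between strains, by the interaction test in limma with Benjamini-Hochberg adjustment, for 12 subunits. For SEF1-VP16 against WT the interaction was −1.28 for RPA12, −1.07 for RPA34, −0.73 for RPA49, −0.73 for RPC40, −0.73 for RPC19, −0.67 for RPB8, −0.67 for RPC17, −0.61 for RPB5, −0.60 for RPC53, −0.60 for RPA43 and −0.59 for RPC82. For SEF1-VP16 against sef1 it was −0.71 for RPA135, −0.66 for RPA49, −0.66 for RPA34 and −0.63 for RPA12. For sef1 against WT it was −0.65 for RPA12. RPA12 was thus named in every strain pair, and 0 of the 16 interactions belonged to a subunit found only in Pol II. The interaction of SEF1-VP16 against WT is the sum of those of the other pairs, so the calls are not independent. The RPA12 call for sef1 against WT was lost with the array median, quantile normalization and the methods' t-test. It was also lost in 12 of the 16 fits without 1 array. All of these interactions span the 3 slides, and medium dependence and slide cannot be told apart.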

How the results depend on the processing

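Counts of subunits called changed most with the fold minimum. With no minimum they were 28 (SEF1-VP16), 27 (sef1) and 21 (WT) between media, in YPD 22 and 5 for SEF1-VP16 and sef1 against WT and 19 between SEF1-VP16 and sef1, in YPGly 2 between sef1 and WT and 6 between SEF1-VP16 and sef1, and 20, 2 and 17 for the interactions of SEF1-VP16 against WT, of sef1 against WT and of SEF1-VP16 against sef1. With a minimum of 2-fold they were 7 (SEF1-VP16), 0 (sef1) and 1 (WT) between media, in YPD 2 for SEF1-VP16 against WT and 0 for the other pairs of strains, and 2, 0 and 0 for these interactions. With no minimum, the interaction of SEF1-VP16 against WT was positive for 728 and negative for 1075 of all 5641 tested probes. That of sef1 against WT was positive for 40 and negative for 75, and that of SEF1-VP16 against sef1 for 942 and 1169. The shares of all probes at 2-fold were not counted. With the array median the counts were 12 between media in sef1, 0 for SEF1-VP16 against sef1 in YPD and 5, 0 and 1 for the interactions. That scaling moved the median of all genes by 0.12 and 0.10 in the interactions of SEF1-VP16 with WT and sef1. With quantile normalization they were 11 between media in sef1, 0 for sef1 against WT in YPD and 6, 0 and 1 for the interactions. Between media in WT, the 3 higher and 3 lower calls became 0 higher and 4 lower with either of these scalings, and 1 higher and 3 lower with normexp. With normexp the counts were 4 for SEF1-VP16 against WT and 0 against sef1 in YPD, and 6 and 2 for their interactions. With the methods' t-test 0 were called for sef1 against WT in YPD and its interaction. With the slide as a term 12 were called between media, 2 between SEF1-VP16 and WT, 1 between sef1 and WT and 0 between SEF1-VP16 and sef1. For this last pair the RPA12 value, tied to the YPGly arrays, was −0.00044 (adjusted p = 0.998 by limma). The cause of these changes was not tested, other than that a fold minimum sets its own count.

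Without 1 array at a time, the counts ran from 14 to 15 (SEF1-VP16), 7 to 11 (sef1) and 4 to 7 (WT) between media, in YPD from 5 to 9 between SEF1-VP16 and WT, 0 to 1 between sef1 and WT and 0 to 1 between SEF1-VP16 and sef1, and for the same pairs from 0 to 0, 0 to 1 and 0 to 2 in YPGly. For the interactions, in that order, they ran from 6 to 12, 0 to 2 and 3 to 6. The deposited log2 table, no intensity filter and a single fit of all arrays changed no call of a named subunit. The numbers of the replicates did not pair the samples, since same-numbered arrays did not all deviate together (for sef1 against WT in YPD the correlations ran from 0.0015 to 0.53), and with the replicate block the counts stayed at 15 in SEF1-VP16, 7 in sef1 and 6 in WT between media, with no other call changed.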
